A study of Mus musculus with 6 samples.

Results

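The genes that set, copy and remove DNA methylation were followed in mouse testis at 6 days (neonatal) and at 8 weeks (adult). The list of 10 genes holds *Dnmt1*, *Uhrf1* and *Uhrf2*, *Dnmt3a*, *Dnmt3b* and *Dnmt3l*, *Tet1*, *Tet2* and *Tet3*, and *Tdg*. An mRNA probe was taken for a gene where the RefSeq accession it carries belongs to that gene. This gave 18 of the 22464 mRNA probes on the array, for 8 of the 10 genes. No probe was matched to *Tet1* or *Tet3*, whose expression is not analysed here. RNA came from whole testes of male C57BL/6 mice, spelled C57/BL6 in the sample labels. The paper divided the mice of each age into 3 groups, 1 for each replicate, so a replicate may pool several animals. The groups held more animals at 6 days than at 8 weeks. Neither age carried an allele or treatment named in the labels. cDNA primed with oligo dT was labelled with Cy3 and hybridized in 1 colour to 6 arrays, 3 per age. The comparison between the ages asks which mRNAs change over postnatal testis development.

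Methyl groups sit on cytosines of CG dinucleotides. *Dnmt3a* and *Dnmt3b* encode the enzymes that place them on unmethylated DNA, helped by *Dnmt3l*, a relative with no catalytic activity of its own, while *Dnmt1* copies the marks onto the new strand after replication and *Uhrf1* brings it there. Tet enzymes oxidise 5-methylcytosine, and the glycosylase *Tdg* cuts oxidised forms out of DNA for repair. In the male germ line, methylation is erased in the fetal germ cells and set anew in prospermatogonia from before birth, and spermatogonia and spermatocytes then carry it through mitosis and meiosis.

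Values are given as normalized log2 signal, which is log2 of the ratio between the background-subtracted signal of a spot and the 75th percentile of its own array, with a floor at -7.23. On the neonatal arrays that percentile was 2954, 2508 and 1387 for replicates 1 to 3, and on the adult arrays 1858, 1428 and 749.1. The share of mRNA probes with signal well above background lay between 73.9% and 78.5% on every array. The file headers give 2 scan times, 1 for replicates 1 and 2 of both ages and 1 for replicate 3 of both ages. The scanner's software marked 40.6% and 31.9% of the mRNA spots as outliers on the neonatal and adult arrays of replicate 3, against 7.61% to 14.2% on the other 4 arrays. Such spots were left out of the test, and a pair of arrays with a marked spot adds nothing to it. Of the 16 member probes that could be tested, 14 rested on 2 pairs and 2 on all 3. The neonatal arrays also differed among themselves in marker genes of the epididymis, the duct that stores sperm. The summed linear level of the 6 listed epididymal markers was 6.36, 0.573 and 7.04 on the neonatal arrays, against 0.216, 0.377 and 0.544 in the adult replicates, so neonatal replicates 1 and 3 stood apart from the other 4 arrays. Most of the sum on neonatal replicates 1 and 3 came from 1 gene, *Crisp1*, whose values are given with *Cxxc4* below. Member counts without those arrays are given beside the main counts.

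*Dnmt3l* was up-regulated in adult testis, and *Dnmt1*, *Dnmt3a*, *Dnmt3b* and *Tet2* were down-regulated. *Tdg* also passed as lower, but its signal was at the floor on every adult array, and its direction turned with another background correction. The test was a limma fit blocked by replicate number, and a gene passed where its p, adjusted by Benjamini and Hochberg, did not exceed 0.05. The tested probe with the highest mean signal stood for its gene. Of 7 genes tested, 1 was thus higher in adult testis, where 29.7% of the 15121 tested mRNA probes were higher. The other direction held 5 of the 7, *Tdg* included, where 45.8% of the tested mRNA probes were lower. *Uhrf1* did not pass, and *Uhrf2* could not be tested because of marked spots. With all spots kept, *Uhrf2* passed as well. This gave 6 of 8 genes lower in adult testis, *Tdg* again included, against 49.5% of mRNA probes, and 1 higher, against 29.8%. With all spots kept and no block, the counts were again 1 higher and 6 lower of 8 genes, *Tdg* included, against 25.5% and 43.3% of mRNA probes. They stayed the same when neonatal replicates 1 and 3 were left out as well, against 19.0% and 29.2%, where the remaining neonatal array is assumed to vary like the adult arrays. Of the 18 probes, 13 had values that did not overlap between the ages, 2 of them higher in adult testis (26.9% of the mRNA probes above background) and 11 lower (45.7%). The 11 include the *Tdg* probe NM_172552, whose adult values were all the floor. These shares among 8 genes are a description of the genes and were not tested against the rest of the array.

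Scaling shifts all values. The median log2 fold change of the tested mRNA probes was -0.40, and it was -0.75 after quantile normalization, -0.65 with a shift to the median, -0.48 with no floor, -0.84 on the authors' log2 values and 0.02 after normexp background correction. Of all mRNA probes called, 60.6% were lower in adult testis, and 48.8% after normexp. Relative to the median of its own setting, *Dnmt3l* lay above by 3.92 to 4.66 over these 6 settings for the probe that stands for it. *Dnmt3a* lay between -3.79 and -3.21, *Dnmt3b* between -3.24 and -2.50, *Tet2* between -2.09 and -1.59 and *Dnmt1* between -1.49 and -0.99. *Uhrf1* changed side with the scaling, from -0.24 after normexp to 0.47 after quantile normalization. So did *Tdg* (NM_172552), from -2.08 after quantile normalization to 0.14 after normexp, with -0.37 in the main setting.

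**Figure D1:**
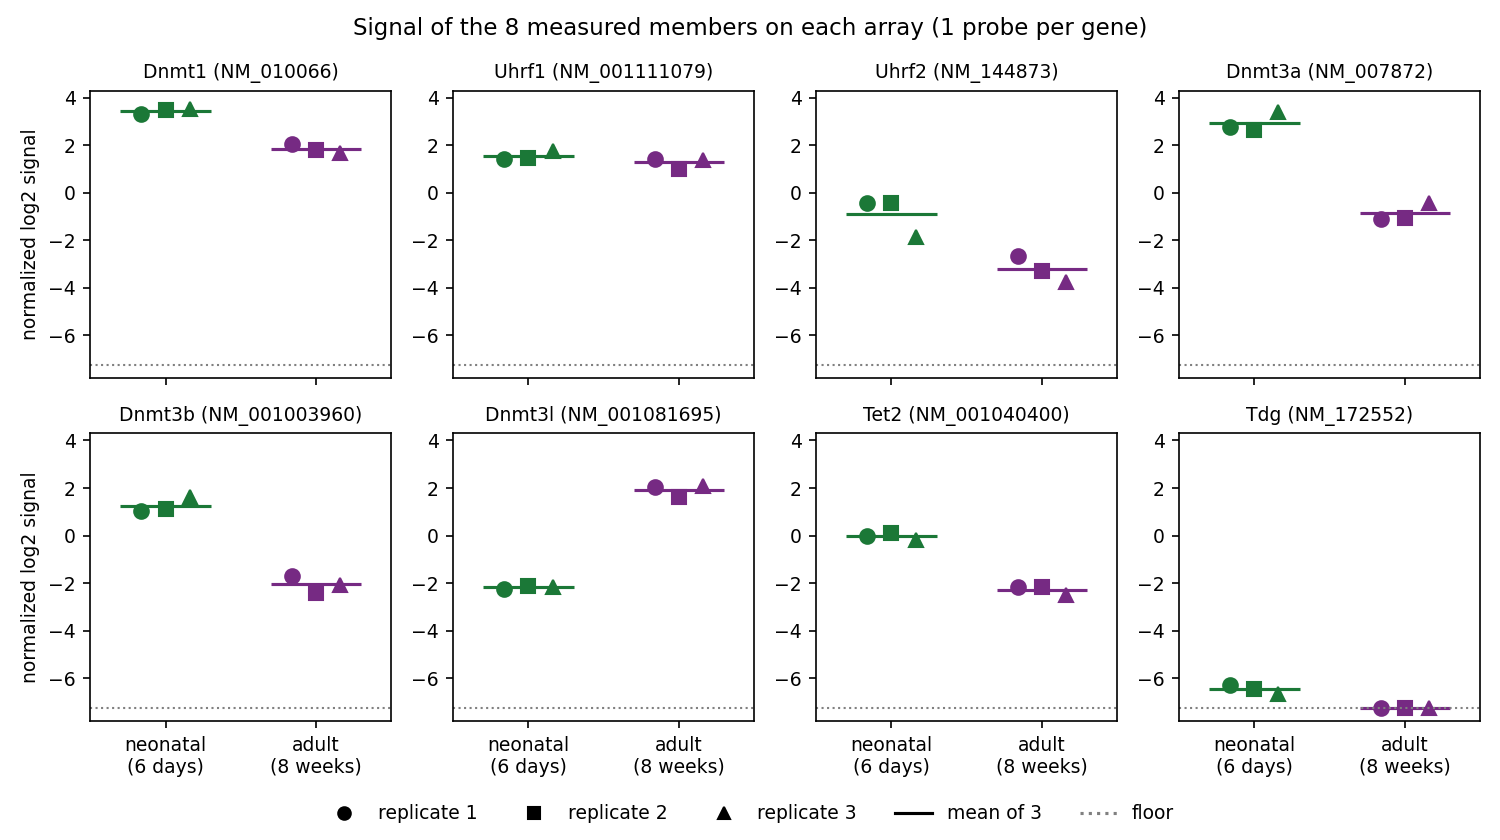
Normalized log2 signal of the 8 measured genes on each array, with 1 probe per gene. The horizontal axis gives the age, the symbols the 3 replicates, the bars their means and the dotted line the floor at -7.23.

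Among the genes of maintenance methylation, *Dnmt1* is the enzyme that methylates the daughter strand behind the replication fork. Its probe (NM_010066) gave a normalized log2 signal of 3.33, 3.48 and 3.54 on the neonatal arrays, in the order of the replicates, and of 2.04, 1.82 and 1.67 on the adult arrays. Every neonatal array lay above every adult array. *Dnmt1* fell by 1.48 on the log2 scale (SE 0.17, adjusted p = 0.00572), or 2.78-fold, in a fit on pairs 1 and 2. The difference within each pair was -1.29, -1.66 and -1.87, so the pair of the second scan, which the fit left out, showed the same direction as the pairs of the first. Without the filter on dim probes, where 29.8% of mRNA probes were lower, *Dnmt1* did not pass (adjusted p = 0.0584) at the same fold change. Nor did it pass the methods' paired t-test after adjustment (adjusted p = 0.118), again at the same fold change. Marked spots were left out of that t-test too, so for *Dnmt1* it rested on pairs 1 and 2 alone. The paper's methods name no such removal, and a t-test with all spots kept is not given here. *Dnmt1* stood at place 4216 among the 15121 tested mRNA probes ordered from the largest fall, so its fall was far from extreme in this comparison.

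*Uhrf1* encodes the protein that recognises hemimethylated CG sites and recruits *Dnmt1*. Its brightest tested probe (NM_001111079) gave 1.42, 1.47 and 1.78 in neonatal replicates and 1.43, 1.00 and 1.39 in adult replicates. The ages overlapped, because adult replicate 1 was level with neonatal replicate 1. In a fit on pairs 1 and 2 the adult-to-neonatal log2 fold change of *Uhrf1* came to -0.23 (SE 0.20, adjusted p = 0.36). The other 2 tested *Uhrf1* probes (NM_001111078, NM_010931) had log2 fold changes of -0.09 each and did not pass either, and the fourth (NM_001111080) could not be tested. With all spots kept, the fourth probe gave -0.63 (adjusted p = 0.105). On the authors' log2 values, 2 of the probes passed as lower in adult testis, at -0.54 for NM_001111079 (adjusted p = 0.0271) and at -0.89 for NM_001111080 (adjusted p = 0.0456).

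*Uhrf2* is a paralogue of *Uhrf1* that also binds modified CG sites. Its probe (NM_144873) gave -0.41, -0.41 and -1.87 in neonatal replicates and -2.66, -3.27 and -3.74 in adult replicates. Neonatal replicate 3 was the lowest of its age, yet above every adult array. The neonatal spots of replicates 1 and 2 were marked as outliers, which left 1 complete pair and no test. With all spots kept, the log2 fold change of *Uhrf2* was -2.33 (SE 0.23, adjusted p = 0.000908), or 5.01-fold, with -2.24, -2.86 and -1.87 within the pairs.

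In the group of de novo methylation, *Dnmt3a* had the largest fall of the tested members, in both of its probes. The probe that stands for it (NM_007872) gave 2.74, 2.63 and 3.39 in neonatal replicates and -1.10, -1.06 and -0.43 in adult replicates. Replicate 3 was the highest at either age, and the ages were far apart. *Dnmt3a* fell by 3.77 on the log2 scale (SE 0.15, adjusted p = 0.000556), or 13.6-fold, in a fit on pairs 1 and 2. The difference within each pair was -3.85, -3.69 and -3.81, with the last from the second scan. The second probe (NM_153743) gave 2.59, 2.50 and 2.99 in neonatal replicates against -1.40, -1.57 and -0.79 in adult replicates. It fell by 4.03 (SE 0.14, adjusted p = 0.000456), or 16.3-fold, which put it at place 220 among the tested mRNA probes ordered from the largest fall. Both accessions name transcripts of the same gene, and what part of the mRNA each probe binds is not given in the sources used here.

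*Dnmt3b*, the second de novo enzyme, had 5 probes, and all 5 fell. The probe that stands for it (NM_001003960) gave 1.03, 1.14 and 1.62 in neonatal replicates and -1.68, -2.40 and -2.08 in adult replicates. No adult array reached the lowest neonatal array. *Dnmt3b* fell by 3.13 (SE 0.27, adjusted p = 0.00286), or 8.74-fold, in a fit on pairs 1 and 2. The differences of this probe within the pairs were -2.72, -3.54 and -3.70. Without the filter on dim probes this probe did not pass (adjusted p = 0.0625) at the same fold change, while 2 of the 5 *Dnmt3b* probes did. Over the 5 probes the log2 fold change ran from -3.36 to -3.13 and the adjusted p from 0.0012 to 0.00286. Under the methods' paired t-test, with marked spots left out, none of them passed once p was adjusted (adjusted p from 0.0792 to 0.124), at the same fold changes. Probes of 1 gene share their transcript and are not independent measurements. Between the probes that stand for the genes, *Dnmt3a* (NM_007872) fell more within every pair. Their ranges met only through pair 3 of *Dnmt3b*, which the fit left out. In pair 2, however, the *Dnmt3b* probes NM_001122997 (-3.74) and NM_010068 (-3.76) fell more than *Dnmt3a* (-3.69). The difference between these genes was not tested.

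*Dnmt3l*, the cofactor that binds *Dnmt3a* and *Dnmt3b* and raises their activity, went the opposite way. Its brighter probe (NM_001081695) gave -2.24, -2.11 and -2.14 in neonatal replicates and 2.04, 1.63 and 2.10 in adult replicates. The 3 neonatal arrays lay close together, and the 3 adult arrays were all far above them. *Dnmt3l* rose by 4.01 on the log2 scale (SE 0.21, adjusted p = 0.000958), or 16.1-fold, in a fit on pairs 1 and 2. The difference was 4.28 and 3.74 within the pairs of the first scan and 4.25 within that of the second. The other probe (NM_019448) gave -2.29, -2.21 and -2.56 in neonatal replicates against 1.74, 1.43 and 1.81 in adult replicates. That probe rose by 3.83 (SE 0.18, adjusted p = 0.00078), or 14.2-fold. As for *Dnmt3a*, what part of the mRNA each probe binds is not given, so which *Dnmt3l* transcripts rose cannot be said. Under the methods' paired t-test, with marked spots left out, *Dnmt3l* passed at the unadjusted threshold with its fold change unchanged. Neither probe passed once p was adjusted. Although *Dnmt3l* changed about as much as *Dnmt3a*, it stood at place 1064 among the tested mRNA probes ordered from the largest rise, while *Dnmt3a* (NM_007872) stood at place 347 from the largest fall.

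Of the Tet enzymes, *Tet2* alone could be measured. *Tet2* oxidises 5-methylcytosine to 5-hydroxymethylcytosine and further forms. Its probe (NM_001040400) gave 0.00, 0.12 and -0.18 in neonatal replicates and -2.17, -2.17 and -2.48 in adult replicates. The arrays of each age lay within a narrow range, and the ranges were well apart. *Tet2* fell by 2.23 (SE 0.14, adjusted p = 0.00147), or 4.69-fold, in a fit on pairs 1 and 2. The differences within the pairs, -2.17, -2.29 and -2.30, lay inside the range of those of *Uhrf2*, so these neighbours in the order of change do not differ beyond their spread.

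*Tdg* removes formylcytosine and carboxylcytosine, the products of Tet oxidation, and thymine from mismatches with guanine. Its signal was near background throughout. The probe that stands for it (NM_172552) had background-subtracted signals of 38.6, 28.4 and 13.8 in neonatal replicates and of 3.56, 3.30 and 1.59 in adult replicates. It was well above background on the 3 neonatal arrays and on none of the adult arrays, where the normalized log2 signal was at the floor, against -6.26, -6.46 and -6.65 in neonatal replicates. The probe entered the test only through its neonatal arrays. The limma fit gave an adjusted p of 0.00638, but every adult value was the floor, so this p sets neonatal signal against a constant. In the main scaling, neonatal testis had at least 1.30-fold more *Tdg* signal than adult testis. For this bound, which is used wherever a fold change is given as "at least", an adult array without signal well above background counts as if the probe had reached the dimmest signal that passed as above background there, or as its own signal if that was higher. After normexp background correction the direction of this probe turned, to a log2 fold change of 0.16 (adjusted p = 0.259). The probe also did not pass without replicate 1 (adjusted p = 0.0555) or replicate 2 (adjusted p = 0.066). The second *Tdg* probe (NM_011561) was well above background on 2 neonatal arrays and no adult array, did not pass (adjusted p = 0.211) and gives no bound above 1. Its result turned on the scaling: it passed as higher in adult testis after normexp, at 0.35 (adjusted p = 0.0359), and as lower after quantile normalization, at -2.04 (adjusted p = 0.00998), or with no floor, at -1.76 (adjusted p = 0.00503).

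**Figure D2:**
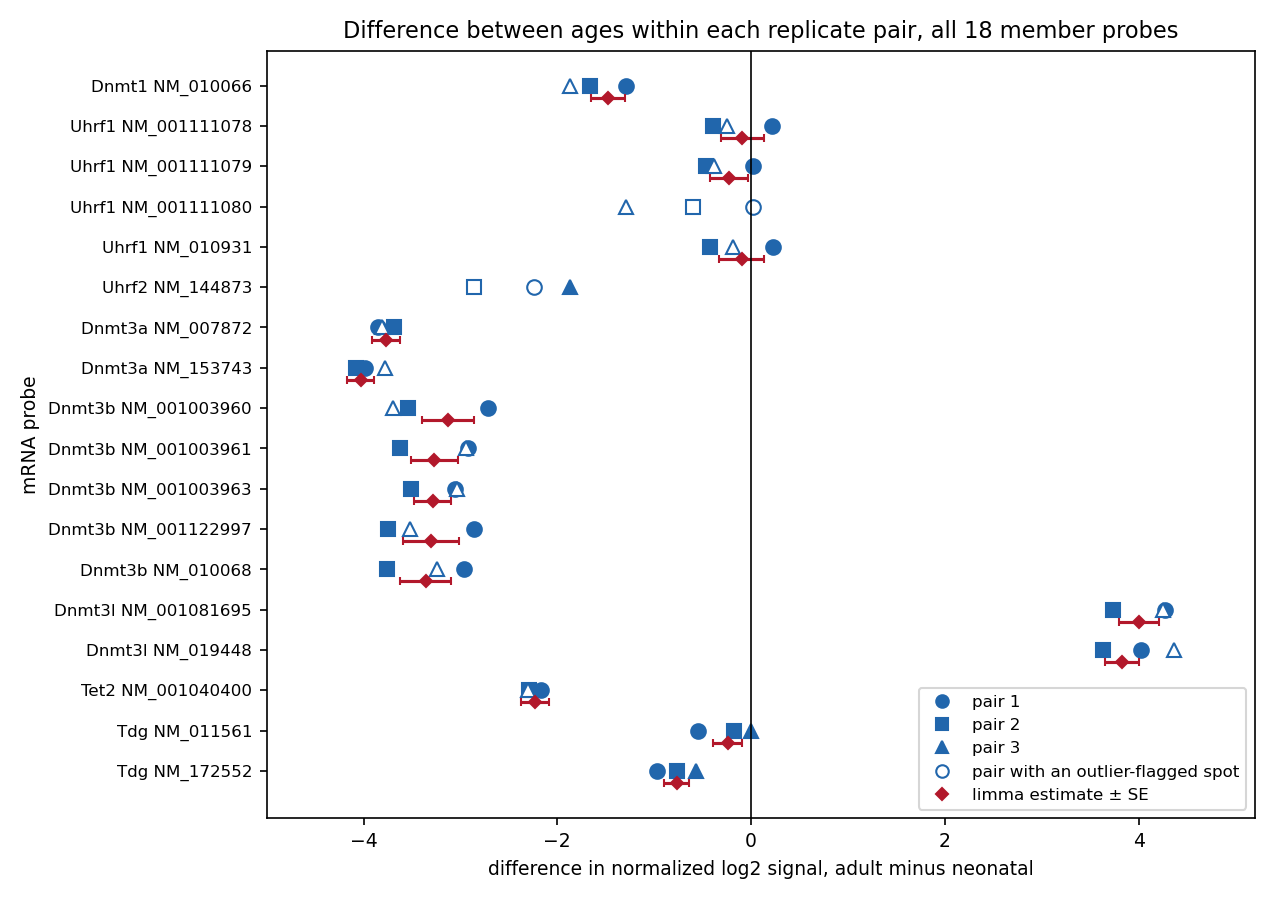
Difference in normalized log2 signal between adult and neonatal testis within each replicate pair, for the 18 probes of the 8 measured genes. Symbols mark the pairs, open symbols a pair with a spot marked as an outlier, and diamonds the limma estimate with its SE where the probe was tested.

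Whole testis changes in its cells between these ages, and each signal is scaled to its own array, so a lower value is a relative one. It can come from fewer cells of a type, from less RNA per cell, or from more RNA of other cell types in the sample. These cannot be told apart here. Markers of spermatids, the haploid cells, moved with *Dnmt3l*: 5 of 5 tested genes rose, and the summed linear level of the list was 0.708, 0.745 and 0.833 in neonatal replicates and 1121, 1340 and 1531 in adult replicates, with *Tnp1* the gene of highest mean log2 signal over the 6 arrays and *Prm2* over the adult arrays. Markers of spermatocytes, the cells in meiosis, rose in 4 of 5 tested genes and fell in 1, and their summed level went from 16.7, 13.8 and 10.4 to 105, 120.1 and 123.8, with *Sycp1* the highest over the neonatal arrays and *Piwil1* over the adult arrays. Several lists moved with *Dnmt3a*, *Dnmt3b*, *Tet2* and *Dnmt1*. Over all tested mRNA probes 45.8% were lower in adult testis and 29.7% higher, and the list counts were not tested against these shares. Of spermatogonial markers 4 of 6 tested genes fell and 1 rose, with a summed level of 30.3, 30.0 and 41.3 against 8.51, 9.85 and 10.4, *Kit* the highest and *Gfra1* without signal well above background. Sertoli cell markers fell in 3 of 3 tested genes, and their summed level was 71.6, 73.7 and 51.1 in neonatal replicates against 17.6, 13.3 and 11.9 in adult replicates, with *Wt1* the highest. Proliferation genes fell in 5 of 7, from 46.3, 47.3 and 74.1 to 30.4, 32.5 and 54.5, with *Top2a*, which did not pass, the highest. Genes often used as references fell too, in 5 of 7, with a median log2 fold change of -1.69 and a summed level of 148.9, 151.8 and 233.1 against 94.4, 88.1 and 129.5, with *Ppia*, which did not pass, the highest. The fall of *Dnmt1* (-1.48) was thus smaller than the median of these reference genes, and those of *Tet2*, *Dnmt3b* and *Dnmt3a* were larger. The part of the cell types in the changes of the methylation genes was not tested.

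Genes that work with the methylation enzymes were taken from 7 lists, 67 genes in all. Of these, 63 had signal well above background on an array or more, and 51 could be tested, 36 of them on 2 pairs and 15 on 3. In adult testis 9 of the 51 were higher (29.7% of tested mRNA probes) and 36 lower (45.8%), and 6 did not pass. Their median log2 fold change was -1.34, against -0.40 over all tested mRNA probes. With all spots kept, the median over 63 genes was -1.21 and -1.45 within the pairs of the first scan and -1.37 within that of the second, where all mRNA probes above background gave -0.47, -0.51 and -0.49. With the scan as a block the median of the 51 tested genes was -1.34. With all spots kept and no block, 10 of 63 genes were higher and 41 lower, against 25.5% and 43.3% of mRNA probes. With neonatal replicates 1 and 3 left out as well, 4 of 63 were higher and 29 lower, against 19.0% and 29.2%. Of the named genes, *Neil2*, *Suv39h1*, *Hdac1*, *Dmap1*, *Setd2*, *Mat2b* and *Mtrr* did not pass with neonatal replicates 1 and 3 left out, and all kept their direction. Among the genes named from these lists, *Zbtb33*, *Suv39h1*, *Mtrr*, *Apobec1* and *Apobec3* rest on all 3 pairs and the others on 2. Of the 9 genes with several tested probes, 0 had probes called in opposite directions.

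Readers of methylated CG sites fell in 3 of 5 tested genes and rose in 0. *Zbtb33*, which encodes the methyl-CG binding zinc finger protein Kaiso, had 3.01, 3.07 and 3.88 in neonatal replicates and 0.33, 0.66 and 0.88 in adult replicates, without overlap. The difference between the ages was -2.69 on the log2 scale (SE 0.15, adjusted p = 0.000378).

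Base excision repair, which replaces a base that a glycosylase has cut out, held both directions. Of its 14 tested genes 4 rose and 10 fell. *Polb*, the polymerase that fills the gap, had 2.99, 2.83 and 2.99 in neonatal replicates and 5.59, 5.48 and 5.81 in adult replicates. Every adult array was well above the neonatal arrays, and the rise was 2.63 (SE 0.14, adjusted p = 0.00102). *Lig3*, which seals the nick with *Xrcc1*, rose by 1.32 (SE 0.17, adjusted p = 0.00686). The largest falls on this list were those of the glycosylase genes *Neil2*, by 3.10 (SE 0.17, adjusted p = 0.00105) and *Nthl1*, by 2.91 (SE 0.14, adjusted p = 0.000848), though not every glycosylase gene on the list fell. No array had *Neil1* signal well above background.

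Partners of the DNA methyltransferases also split, with 4 of 12 tested genes higher and 7 lower. *Cdca7*, a protein of the chromatin remodeller complex that *Hells* drives, had 2.17, 2.25 and 2.69 in neonatal replicates and -2.11, -3.02 and -2.26 in adult replicates. Its fall of 4.78 (SE 0.31, adjusted p = 0.00154) was larger than that of any member. *Suv39h1*, a histone H3 lysine 9 methyltransferase, fell by 2.62 (SE 0.13, adjusted p = 0.000284). The largest rises on this list were small, 1.05 for the histone deacetylase *Hdac1* (SE 0.14, adjusted p = 0.00788) and 0.95 for *Dmap1*, which binds *Dnmt1* (SE 0.14, adjusted p = 0.00974).

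Enzymes of the histone marks that guide de novo methylation fell in 2 of 3 tested genes. These were *Kdm1b*, a demethylase of histone H3 lysine 4, at -1.95 (SE 0.14, adjusted p = 0.00187), and *Setd2*, which trimethylates lysine 36, whose ages overlapped, at -0.65 (SE 0.14, adjusted p = 0.0273). In the list of imprint protection and insulation 3 of 4 genes fell. *Dppa3*, which shields methylation in the early embryo, had -1.59, -1.74 and -1.52 in neonatal replicates and -5.54, -5.57 and -5.45 in adult replicates. It fell by 3.89 (SE 0.14, adjusted p = 0.000497), and the insulator protein gene *Ctcf* fell by 1.54 (SE 0.16, adjusted p = 0.00434).

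Supply of the methyl donor S-adenosylmethionine and of 2-oxoglutarate, the cosubstrate of Tet enzymes, held 7 lower genes and 1 higher gene of 8 tested. *Idh2*, which makes 2-oxoglutarate in mitochondria, fell by 2.63 (SE 0.14, adjusted p = 0.00107), and *Mat2b*, a regulatory subunit of S-adenosylmethionine synthesis, by 2.22 (SE 0.14, adjusted p = 0.0014). The gene that rose was *Mtrr*, methionine synthase reductase, at 0.72 (SE 0.16, adjusted p = 0.0152). No array had signal well above background for *Gnmt*, or for *Zbtb38* among the readers.

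Of 5 tested genes on the list of other cytosine-modifying enzymes and their regulators, 4 fell and 0 rose. *Apobec3*, a cytidine deaminase that restricts retroviruses, fell by 2.95 (SE 0.14, adjusted p = 0.000249), and *Apobec1*, which edits mRNA, by 1.49 (SE 0.21, adjusted p = 0.00415). *Cxxc4*, a CG-binding protein that lowers *Tet2* protein, had -0.80, -3.90 and 0.01 in neonatal replicates and was not well above background on any adult array. This gene entered the test only through its neonatal arrays. Its adult values lay at or near the floor, so the adjusted p of 0.0171 from the limma fit says little on adult spread. Neonatal testis had at least 22.5-fold more *Cxxc4* signal. Neonatal replicate 2, however, lay far below the other neonatal arrays, as it did for the epididymal marker *Crisp1* (2.43, -4.34 and 2.51). From neonatal replicate 2 alone the bound for *Cxxc4* is 7.67-fold.

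**Figure D3:**
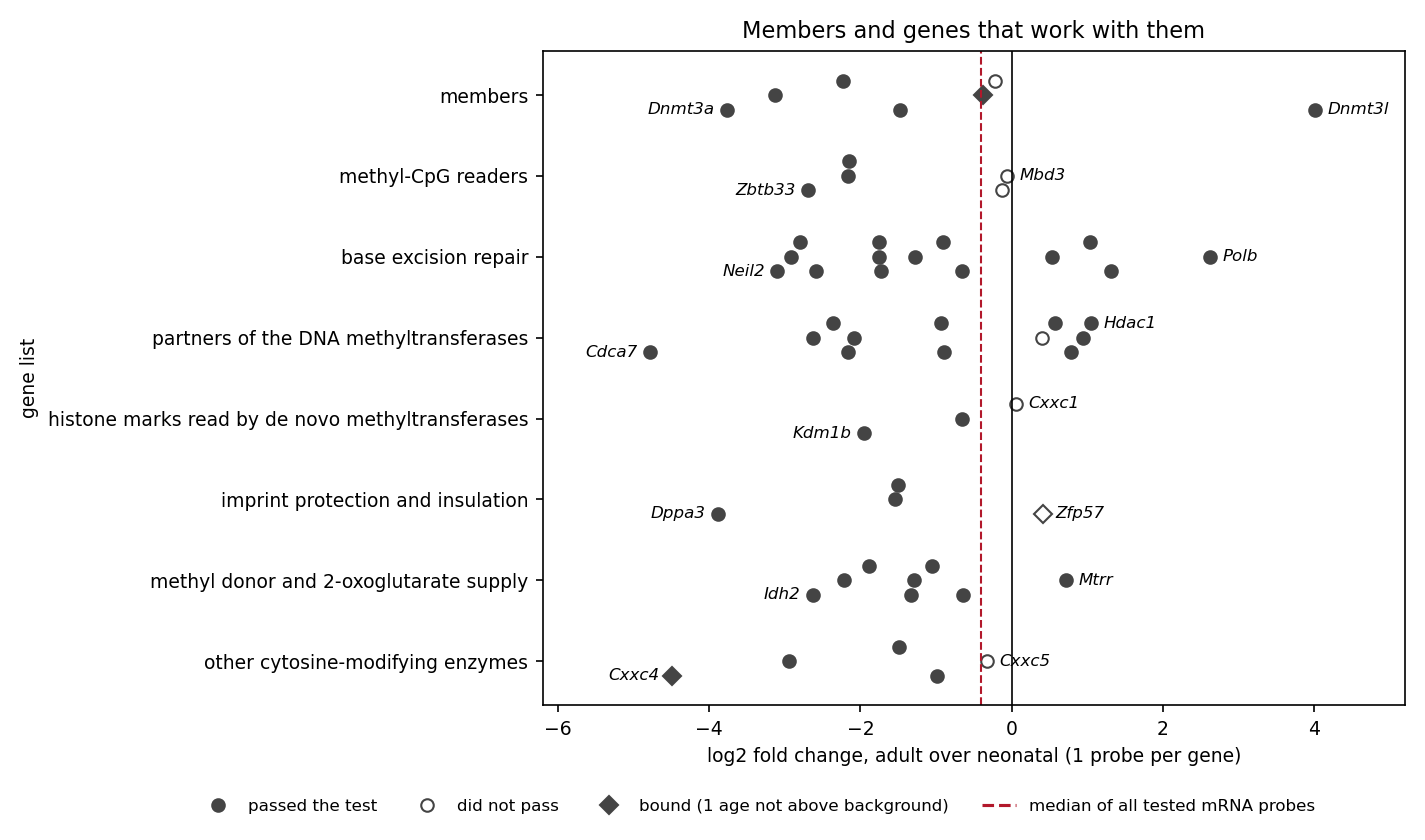
Log2 fold change of adult over neonatal testis for the 7 tested members and the 51 tested genes of the 7 lists, 1 probe per gene. Filled symbols passed the test and open symbols did not, diamonds show a bound in place of the fold change, and the dashed line marks the median of all tested mRNA probes (-0.40).

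Promoter windows of the members were compared because CG dinucleotides are the substrate of these enzymes and because *Dnmt3l* moved against *Dnmt3a*, *Dnmt3b* and *Tet2*. RefSeq windows on GRCm38.p6, from 250 bases before to 50 after an annotated start, were found for 10 of the 10 genes, 17 windows in all. Over the 32851 windows of all genes the median was 7 CG dinucleotides, and the quartiles were 3 and 20. The 3 *Dnmt3l* windows held 6, 4 and 3. By contrast the *Dnmt3b* window held 30, the *Tet2* window 57 and the 3 *Dnmt3a* windows 46, 47 and 18. Fewer CG dinucleotides than in the *Tet2* window were found in 99.8% of all windows. The *Dnmt3l* windows, the first *Dnmt3a* window and those of *Dnmt3b* and *Tet2* are printed 5′ to 3′ on the strand of the gene, with each CG in capitals, to show the sequence of the gene that rose beside 3 of those that fell. The contrast does not hold for every gene that fell, as the *Dnmt1* windows held 2, 12 and 33 CG dinucleotides.
*Dnmt3l* first window, chr10:78042037-78042336, plus strand: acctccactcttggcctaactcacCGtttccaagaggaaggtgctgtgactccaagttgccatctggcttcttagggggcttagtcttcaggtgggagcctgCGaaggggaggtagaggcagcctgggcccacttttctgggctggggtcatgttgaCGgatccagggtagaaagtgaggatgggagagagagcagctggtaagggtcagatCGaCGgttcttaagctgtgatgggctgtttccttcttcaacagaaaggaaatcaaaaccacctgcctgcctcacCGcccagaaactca
*Dnmt3l* second window, chr10:78049592-78049891, plus strand: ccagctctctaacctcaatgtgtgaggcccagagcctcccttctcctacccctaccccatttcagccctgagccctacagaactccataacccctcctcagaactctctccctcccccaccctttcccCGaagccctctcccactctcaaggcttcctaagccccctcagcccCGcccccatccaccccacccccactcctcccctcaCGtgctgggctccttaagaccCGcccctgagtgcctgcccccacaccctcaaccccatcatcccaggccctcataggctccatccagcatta
*Dnmt3l* last window, chr10:78055085-78055384, plus strand: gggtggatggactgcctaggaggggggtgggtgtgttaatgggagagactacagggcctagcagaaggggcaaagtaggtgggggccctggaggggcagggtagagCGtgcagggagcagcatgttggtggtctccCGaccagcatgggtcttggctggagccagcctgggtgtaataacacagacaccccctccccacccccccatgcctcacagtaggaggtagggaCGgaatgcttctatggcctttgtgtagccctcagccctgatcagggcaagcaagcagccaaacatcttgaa
*Dnmt3a* first window, chr12:3806730-3807029, plus strand: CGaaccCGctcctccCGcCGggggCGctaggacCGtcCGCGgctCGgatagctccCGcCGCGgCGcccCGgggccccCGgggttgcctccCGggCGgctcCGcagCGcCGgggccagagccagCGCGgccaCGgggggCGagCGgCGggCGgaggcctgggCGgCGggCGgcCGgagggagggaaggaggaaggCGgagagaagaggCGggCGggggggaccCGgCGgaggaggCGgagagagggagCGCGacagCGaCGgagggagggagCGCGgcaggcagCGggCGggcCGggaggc
*Dnmt3b* window, chr2:153649199-153649498, plus strand: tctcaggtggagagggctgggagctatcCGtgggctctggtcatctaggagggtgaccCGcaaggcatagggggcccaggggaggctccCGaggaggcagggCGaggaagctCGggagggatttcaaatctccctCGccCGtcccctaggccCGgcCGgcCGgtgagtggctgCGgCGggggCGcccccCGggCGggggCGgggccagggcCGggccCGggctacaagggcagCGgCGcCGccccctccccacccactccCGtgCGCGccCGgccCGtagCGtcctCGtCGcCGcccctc
*Tet2* window, chr3:133544341-133544640, minus strand: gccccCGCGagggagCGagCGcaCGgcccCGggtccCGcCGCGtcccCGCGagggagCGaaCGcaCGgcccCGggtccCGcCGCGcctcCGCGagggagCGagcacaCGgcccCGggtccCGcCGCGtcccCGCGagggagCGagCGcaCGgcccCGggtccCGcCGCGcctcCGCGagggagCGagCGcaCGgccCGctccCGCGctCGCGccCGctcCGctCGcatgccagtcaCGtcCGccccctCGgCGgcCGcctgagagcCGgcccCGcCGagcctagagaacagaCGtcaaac

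Short words were searched in the same windows on both strands. E2F factors act on genes of the replication phase, and any of the words TTTCGCGC, TTTCCCGC, TTTGGCGC and TTTGCCGC was found in 2.26% of all windows and in 2 of the 17 member windows. The member windows were window 3 of *Dnmt1*, chr9:20952574-20952873 on the minus strand, and window 2 of *Uhrf1*, chr17:56304063-56304362 on the plus strand. TGACGTCA, the word bound by CREB family factors, was found in the *Tdg* window, chr10:82629588-82629887 on the plus strand, and in 1.79% of all windows. CCAAT was found in 6 member windows and in 37.4% of all windows. None of these words was found in the windows of *Dnmt3a*, *Dnmt3b*, *Dnmt3l* and *Tet2*, which says only that these letters are not there.

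The genes whose pattern over the 6 arrays lay closest to *Dnmt3l* and *Dnmt3a* were found by Euclidean distance between centred normalized log2 signals. Candidates were 4381 named mRNA probes, those with 6 spots well above background of which none was marked as an outlier. The probe closest to *Dnmt3l* (NM_001081695) was that of *Trim54* at 0.22, followed by *Psca* at 0.399 and *Defb41* at 0.403. *Trim54* had -3.59, -3.46 and -3.49 in neonatal replicates and 0.81, 0.49 and 0.70 in adult replicates, so like *Dnmt3l* it was low on every neonatal and high on every adult array. Closest to *Dnmt3a* (NM_007872) was *St3gal2* at 0.132, then *Tmem229b* at 0.198 and *Sfrp1* at 0.228. *St3gal2* had 2.80, 2.72 and 3.53 in neonatal replicates and -1.07, -0.89 and -0.27 in adult replicates, with replicate 3 the highest at either age, as for *Dnmt3a*. The replicate 3 spots of the *Dnmt3a* probe at either age, and that of the *Dnmt3l* probe in adult testis, were marked as outliers. The distances therefore use spots that were left out of the test. No lncRNA probe carries an accession of a member (0 probes).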

How the data were processed

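RNA of whole testes of 6-day-old and 8-week-old mice was measured on 6 one-colour Agilent arrays, 3 per age. The intensity values were deposited as background-subtracted signals that the authors read from the scans with Agilent Feature Extraction 10.5.1.1. The log2 values deposited by the authors equal the log2 signal, floored, less a constant per array, within 0.001, although their methods name quantile normalization; their column medians were 1.20 to 1.30. The intensity values were used here. Each was scaled to the 75th percentile of the array, and outlier-marked spots were left out. Testing needed signal well above background on 1 array or more and 2 complete pairs or more, which held for 15121 mRNA and 9396 lncRNA probes, fitted together with limma 3.58.1 in R 4.3.3 and version 1.17.8 of data.table. Figures were drawn with matplotlib 3.10.9. The code was tested on simulated data. Pairing was checked by the correlation of deviations from the age means: arrays of 1 number and scan gave r of 0.401, 0.339 and 0.681, other numbers in the same scan 0.432 and 0.374, and arrays of different scans -0.586 to -0.481, so within the first scan arrays of the same number were no more alike than others, and in the second scan number and scan cannot be told apart. The members and lists were chosen with earlier results of these data known. Genes are named from each list by a rule, up to 2 with the largest change among those that passed in each direction, and any gene with a bound above these. Alternatives changed the scaling, floor, filter, marked spots, block, threshold, test and arrays.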

Additional observations from a re-analysis of the deposited data

How the results depend on the processing

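With no replicate block, and so no pairing, 1 member gene was higher and 5 were lower in adult testis, as in the blocked fit, and 4037 mRNA probes were higher and 6354 lower. The 5 lower members, *Tdg* among them, became 3, again with *Tdg*, with no filter on dim probes, where the share of lower mRNA probes was 29.8%. There *Dnmt1* and the probe that stands for *Dnmt3b* lost their call at unchanged fold changes. With the filter kept, the lower members were 2 when a fold change of at least 5 was also required. Under the methods' t-test with the same 5-fold cut they were 1, with or without Benjamini-Hochberg adjustment. With adjustment 0 members were higher. Marked spots were left out of this t-test too, so most member probes rested on 2 pairs in it. Without the cut *Tet2* also passed the adjusted form, which *Dnmt1*, *Dnmt3b*, *Dnmt3l* and *Tdg* did not. The 9 higher pathway genes became 3 after quantile normalization and 5 with no filter. With the filter kept, they were 1 when the 5-fold cut was added. Under the methods' t-test with the 5-fold cut they were also 1, before and after adjustment. With marked spots kept and no block they were 10, and 4 with neonatal replicates 1 and 3 left out as well; the 36 lower ones became 12, 9 and 6 with 5-fold, the methods' t-test with 5-fold and its adjusted form. The 4496 higher mRNA probes became 1908, 1794 and 1479 in these settings, and the 6920 lower ones 2074, 1741 and 1265. Leaving out 1 replicate pair gave 0 to 1 members higher and 0 to 5 lower, 0 to 8 pathway genes higher and 10 to 33 lower, 1863 to 4239 mRNA probes higher and 2571 to 6393 lower; without pair 1 or 2 only 1 member was tested, by construction, and this member, *Tdg*, lost its call. With marked spots kept, leaving out any 1 pair gave 1 member higher and 6 lower of 8, *Tdg* among the lower ones, against 26.2% to 27.7% and 43.8% to 44.7% of mRNA probes. With no block, leaving out neonatal replicate 1, neonatal 2, adult 1 or adult 2 gave 1, 1, 0 and 0 members higher and 1, 1, 4 and 4 lower of 2, 2, 4 and 4 tested, 1, 0, 0 and 0 pathway genes higher, 8, 8, 16 and 17 lower, 2441, 2433, 1880 and 1934 mRNA probes higher and 2546, 2517, 4051 and 3980 lower. In each of these fits with no block, *Tdg* was among the lower members. The direction reversed for *Uhrf1* (NM_010931), at 0.023 with marked spots kept and without pair 2, and for *Tdg* after normexp, at 0.35 (NM_011561) and 0.16 (NM_172552). The cause was not tested. Keeping marked spots together with no block or with arrays left out was chosen after seeing the data.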

Other observations

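Other cell types were followed by marker lists. Germ cell markers had a summed linear level of 50.1, 58.5 and 39.3 on the neonatal arrays and 172.7, 194.1 and 171.2 on the adult arrays, and 2 of 2 tested genes rose. With marked spots kept 3 of 4 were higher and 1 lower. Leydig cell markers gave 26.5, 28.4 and 25.4 against 72.8, 56.4 and 54.2, with 2 of 4 tested genes higher, 1 lower, *Hsd3b1* (which fell) the highest over the neonatal arrays and *Insl3* (not tested) over the adult arrays. Endothelial markers fell in 5 of 5 tested genes, with a median log2 fold change of -2.01 and *Cdh5* the highest. Peritubular myoid markers fell in 2 of 3, with *Myh11* the highest. Macrophage markers split, with 1 of 3 higher and 1 lower. Of the erythroid markers 2 of 2 tested genes rose, while the summed level of the list was 4.68, 5.97 and 2.29 on the neonatal arrays and 2.75, 2.56 and 2.10 on the adult arrays. With marked spots kept, 2 of 3 were higher and 1 lower; *Hba-a1* was the highest over the neonatal arrays and *Alas2* over the adult arrays. Of the epididymal markers 1 of 5 tested genes was higher, 1 lower and 3 did not pass, with *Crisp1* the highest over the neonatal arrays and *Adam7* over the adult arrays.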
